A study of Mus musculus with 15 samples.

Results

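The transcription factors of the Lef/Tcf family and the feedback genes of canonical Wnt signalling were followed in kidney cells sorted by the Crym-EGFP reporter from newborn mice. The listed members, 10 genes, are Lef1, Tcf7, Tcf7l1, Tcf7l2, Axin2, Lgr4, Lgr5, Znrf3, Rnf43 and Nkd1. A member entered when the array held a probe set, the group of probes summarised into one value, that carries its symbol and no other. Of the 10, 9 had such a probe set, 1 each, among 19938 genes in all. Tcf7 had none and was not analysed here. A gene was tested where at least 3 arrays gave it more than log2 6.86, the median over the whole table. This left 11885 genes, among them 8 members. Rnf43 passed in 1 array only and is described without entering the main tests. Lgr5 passed in 4 arrays, the 3 P4 arrays and 1 P0 array, so it passed largely through the group in which it was high.

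The study profiled total RNA of sorted cells on 1-colour whole-transcript arrays at P0, P1, P2, P3 and P4 (postnatal days 0 to 4), with 3 samples for each day. The P4 samples carry the label renal vesicle, the epithelial ball from which a nephron grows. The other 12 samples, P0 to P3, carry the label cap mesenchyme, the progenitor cells that cover the tips of the ureteric bud. All samples came from CD-1 mice with the BAC transgene Tg(Crym-EGFP)82Gsat, in which regulatory sequence of Crym drives the green fluorescent protein. Cells were thus sorted by that protein, and whether the transgene was still active in each sorted cell was not tested. Sex is labelled unknown, each sample pooled about 4 kidneys, and pups were moved to CD-1 foster mothers at E18.5. The design text names cap mesenchyme for all 5 days, the sources used here do not give the gate at P4, and age and label change together at P4, so that they cannot be told apart. No label says whether the 3 pools of a day were separate litters, so the spread behind each p-value is that between pools and may be technical.

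In canonical Wnt signalling a Wnt ligand binds a Frizzled receptor and an Lrp co-receptor, which stops the destruction complex from removing beta-catenin. Beta-catenin then enters the nucleus and binds Lef/Tcf proteins, which sit on DNA and hold target genes off with Groucho/Tle corepressors until beta-catenin arrives. Several genes, many of them targets, feed back on the pathway: Axin2 and Nkd1 dampen the signal inside the cell, Znrf3 and Rnf43 take Frizzled receptors off the surface, and Lgr4 and Lgr5 bind R-spondins, which hold Znrf3 and Rnf43 in check. In the kidney, Wnt9b from the ureteric bud and Wnt4 from the progenitors drive the change of cap mesenchyme into renal vesicle.

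The labels were first set against marker genes. Crym averaged 7.80 at P4 and 11.37 in cap mesenchyme, and the progenitor factor Six2 averaged 8.44 at P4 and 10.59 in cap mesenchyme. Of 11 cap mesenchyme markers 9 were lower at P4, and of 12 renal vesicle markers, which include Lhx1, Jag1 and Wnt4, 9 were higher. These counts are against the mean of P0 to P3. Against P3 alone, 5 of the 11 were lower and 1 of the 12 was higher. Array medians lay between 6.80 and 6.92. The 5 first replicates, whose titles carry no number, had a narrower spread of values (interquartile range 2.14 to 2.27) than the 10 samples numbered 2 and 3 (2.52 to 2.77). These are called the 2 array sets below. The labels do not name them as a batch. Every day has 1 array of the first set and 2 of the other, and each comparison was also fitted with the array set as a block.

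DNA sequence upstream of the members is shown because Lef1 and several other members are themselves known as Wnt targets. RefSeq windows (GRCm38.p6) of 250 bases before a start site were searched on both strands for the Lef/Tcf motifs CTTTGAA as well as CTTTGAT and for CTTTGTA as well as CTTTGTT. Windows were found for 8 members. Of their 14 windows, some of which overlap, 2 (14.29%) held a match, against 14.84% of 32851 RefSeq windows over all genes, so that the members stood near the background. Both matches stood before start sites inside genes, in Lef1 and in Tcf7l2. The first 3 sequences below lie before the first start site of members on which the results turn, and the last 2 hold a match, printed in capitals.
Lef1, first start site, chr3:131110047-131110296, plus strand: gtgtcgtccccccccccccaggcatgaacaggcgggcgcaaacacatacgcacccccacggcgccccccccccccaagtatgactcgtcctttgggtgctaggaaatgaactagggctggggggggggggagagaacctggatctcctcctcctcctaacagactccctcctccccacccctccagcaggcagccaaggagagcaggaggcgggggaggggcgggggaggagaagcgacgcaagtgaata
Lgr4, chr2:109917397-109917646, plus strand: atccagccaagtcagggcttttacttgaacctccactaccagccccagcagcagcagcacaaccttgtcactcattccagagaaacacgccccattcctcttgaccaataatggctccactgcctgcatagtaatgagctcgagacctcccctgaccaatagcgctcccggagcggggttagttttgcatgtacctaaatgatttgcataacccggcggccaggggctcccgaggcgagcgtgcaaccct
Tcf7l1, chr6:72789046-72789295, minus strand: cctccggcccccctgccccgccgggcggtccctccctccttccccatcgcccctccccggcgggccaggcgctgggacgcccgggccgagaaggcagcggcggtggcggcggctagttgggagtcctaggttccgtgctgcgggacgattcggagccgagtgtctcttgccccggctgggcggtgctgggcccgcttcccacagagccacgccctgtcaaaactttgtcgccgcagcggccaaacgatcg
Lef1, start site inside the gene, chr3:131156044-131156293, plus strand: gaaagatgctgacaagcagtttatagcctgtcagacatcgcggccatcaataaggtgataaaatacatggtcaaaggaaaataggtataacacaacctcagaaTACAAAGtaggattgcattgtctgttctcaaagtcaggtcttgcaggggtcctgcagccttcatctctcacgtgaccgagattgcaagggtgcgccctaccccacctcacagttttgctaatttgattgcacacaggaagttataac
Tcf7l2, start site inside the gene, chr19:55895071-55895320, plus strand: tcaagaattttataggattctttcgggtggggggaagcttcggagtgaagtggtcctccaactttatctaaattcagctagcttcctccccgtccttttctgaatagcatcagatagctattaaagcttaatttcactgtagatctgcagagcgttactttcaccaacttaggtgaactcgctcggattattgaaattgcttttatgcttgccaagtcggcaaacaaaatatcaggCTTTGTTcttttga
In Lef1 the match reads CTTTGTA on the opposite strand and begins at -147 from the start site. In Tcf7l2 it reads CTTTGTT and begins at -14. A match of 7 letters is a description of the sequence, and a window without one lacks only these letters. The single probe set of each gene gives 1 value and does not separate start sites.

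Among the DNA-binding members, Lef1 was higher at P4 and rose over the cap mesenchyme days. Lef1 is the family member most often linked to activation of Wnt targets. Its log2 values were 6.99, 7.08 and 7.20 at P0, 6.86, 7.00 and 7.09 at P1, 7.28, 7.52 and 7.44 at P2, 7.66, 8.71 and 8.22 at P3, and 8.32, 8.75 and 8.98 at P4, in the order of replicates 1 to 3. All 3 P2 samples lay above all samples of P0 and P1, and all 3 P3 samples lay above those of P2. The P4 and cap mesenchyme groups overlapped only through P3, where replicate 2 lay above P4 replicate 1. The P3 samples were the most spread of any day (8.20 ± 0.52, SD, n = 3).

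Lef1 at P4 exceeded the mean of the 4 cap mesenchyme days by 1.26 (SE 0.17, 2.39-fold, limma adjusted p = 0.00031). Lgr4 and Lgr5 were higher in this comparison as well. Of the 7 members that passed the filter on cap mesenchyme arrays alone, 2 were higher, Lef1 and Lgr4, against 3.41% of all genes tested. Lgr5 needed its P4 arrays to pass the filter and is left out of that count. The difference was 1.12 among first replicates and 1.33 among replicates 2 and 3, and the call held in each of 15 fits that left out 1 sample. In the test of any difference among the 5 days, which calls 5.37% of all genes, Lef1 (limma adjusted p = 0.00047) and Lgr4 (0.0204) passed without a block. Lgr5 passed too (0.0113), but it met the filter largely through P4 and is not set against that share. Tcf7l1 also passed with the replicate number as a block (adjusted p = 0.00181), in the array set block fit (0.00251) and among replicates 2 and 3 alone (0.0150), but not with the array set as a random block (0.0646). Within replicates 2 and 3 Lgr4 did not pass (adjusted p = 0.0795). Without P4 replicate 2 or without P4 replicate 3, Lgr4 and Lgr5 no longer passed that test, at adjusted p up to 0.139 for Lgr4 and 0.0765 for Lgr5.

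Over P0 to P3 the slope of Lef1 was 0.37 per day on the log2 scale (SE 0.07, limma adjusted p = 0.00879). In this fit without a block it was the only member of 8 to rise, with 1.65% of all genes rising, and no member fell, with 1.48% of all genes falling. With the replicate number or the array set as a block, or within replicates 2 and 3, Tcf7l1 fell, with adjusted p between 0.00663 and 0.0194. Lef1 at P3 exceeded P0 by 1.11 (SE 0.22, 2.15-fold, limma adjusted p = 0.0158), as the only member of 8 called without a block, where 1.09% of all genes were higher. With either block Tcf7l1 was lower in this comparison. The Lef1 call in the limma fit with no block ended without P0 replicate 1, 2 or 3 or P3 replicate 2 or 3. Each was left out alone, and the adjusted p then was up to 0.0626.

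The step of Lef1 between P3 and P2 was 0.78 (SE 0.22, limma adjusted p = 0.284) in the fit without a block, in which 0 members and 0.143% of all genes passed and 2 members had an unadjusted p under 0.05. With the replicate number as a block the same difference passed (adjusted p = 0.0203), as in the array set block fit (0.0173, where 0.791% of all genes were higher) and within replicates 2 and 3 (0.98, adjusted p = 0.0372). The difference of P4 from P3 was 0.48 (SE 0.22, adjusted p = 0.628, 95% interval 0.01 to 0.95). The order of these 2 steps rested on P3 replicate 2, without which P3 exceeded P2 by 0.53 and P4 exceeded P3 by 0.74. Among the first replicates the same steps were 0.39 and 0.65. No member passed between P2 and P1, where 0.0841% of all genes did, or between P1 and P0, where 0% did. In the limma fit without a block, 0 members in either step had an unadjusted p under 0.05. With the array set block Lef1 at P2 exceeded P1 by 0.43 (limma unadjusted p = 0.0131, adjusted p = 0.360). With the replicate block Lgr4 differed by -0.41 in that step (unadjusted p = 0.0426, adjusted p = 0.545).

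**Figure D1:**
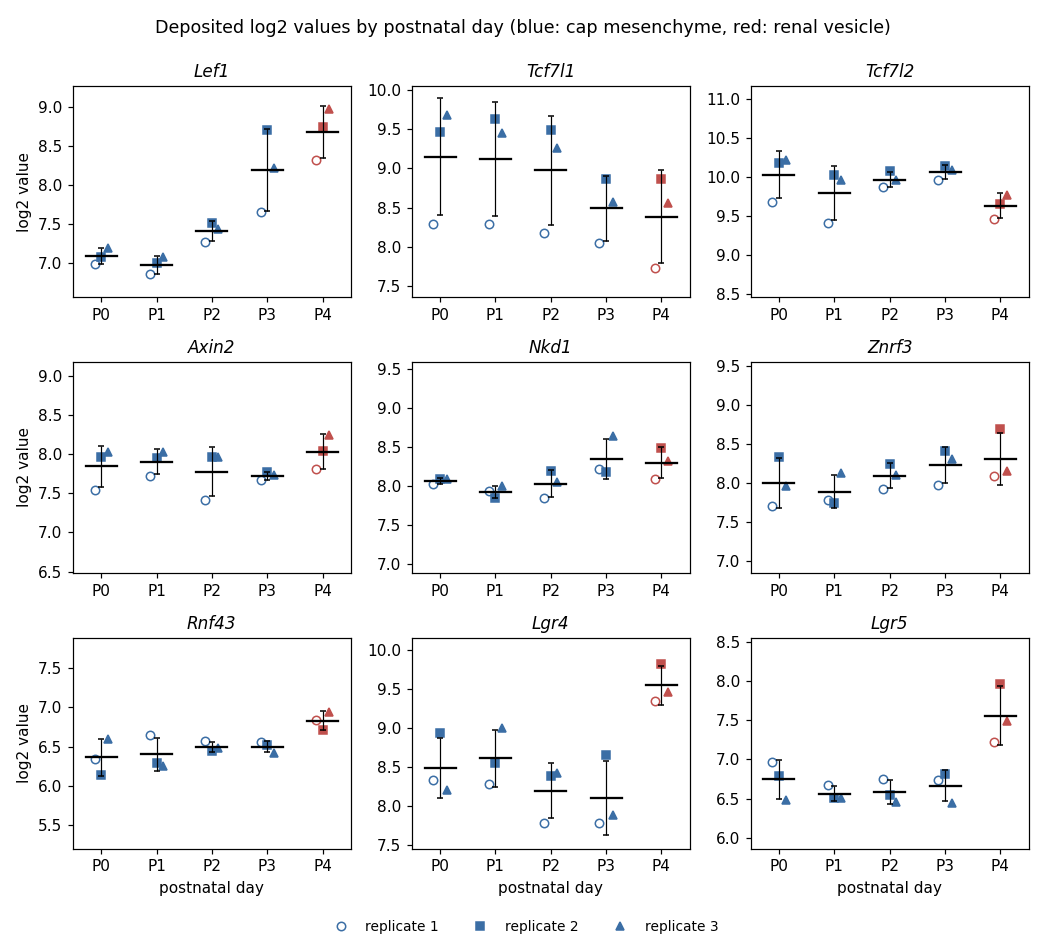
Deposited log2 value (vertical axis) of the 9 measured members in every sample by postnatal day, with replicates 1 to 3 as circles, squares and triangles, P4 in red and cap mesenchyme in blue, and bars for the day mean ± SD (n = 3). The 3 P4 values of Lgr4 (9.35 to 9.82), Lgr5 and Rnf43 lie above all 12 cap mesenchyme values, and the first replicates of Tcf7l1 lie lowest on every day. The share of all genes without overlap was not counted.

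Tcf7l1, the family member that acts chiefly as a repressor, had estimates of the opposite sign. Its values were 8.29, 9.47 and 9.68 at P0, 8.29, 9.63 and 9.46 at P1, 8.18, 9.49 and 9.26 at P2, 8.04, 8.86 and 8.57 at P3, and 7.73, 8.87 and 8.56 at P4. In each array set the P3 and P4 values were below those of P0, P1 and P2, while over both sets the days overlapped. The first replicates averaged 1.08 below the others, the widest gap between array sets of any member.

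Tcf7l1 at P4 differed from cap mesenchyme by -0.55 (SE 0.36, limma adjusted p = 0.605, 95% interval -1.32 to 0.22) without a block. The array set block left the estimate the same, with SE 0.12 and adjusted p = 0.00467. With the array set as a random block, whose correlation is estimated, the call was lost (SE 0.18, adjusted p = 0.0636). In the array set block fit Tcf7l1 was 1 of 2 members that were lower, where 5.06% of all genes were lower, against 0 members and 2.32% without the block. Within replicates 2 and 3 the difference was -0.59 (adjusted p = 0.0275), and the single first replicate of P4 lay -0.47 from the mean of its set's cap mesenchyme arrays.

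The slope of Tcf7l1 over P0 to P3 was -0.21 per day (SE 0.14, limma adjusted p = 0.674) without a block. It passed with the replicate number as a block (adjusted p = 0.00663), in the array set block fit (0.00892, where 3.9% of all genes fell) and within replicates 2 and 3 (-0.28 per day, adjusted p = 0.0194), but not with the random array set block (0.0941). P3 differed from P0 by -0.66, with adjusted p = 0.74 without a block, 0.00966 with the replicate block and 0.0129 with the array set block, where 3.15% of all genes were lower, but 0.125 with the random array set block. P4 and P3 differed by -0.10 (SE 0.45, 95% interval -1.08 to 0.87).

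**Figure D2:**
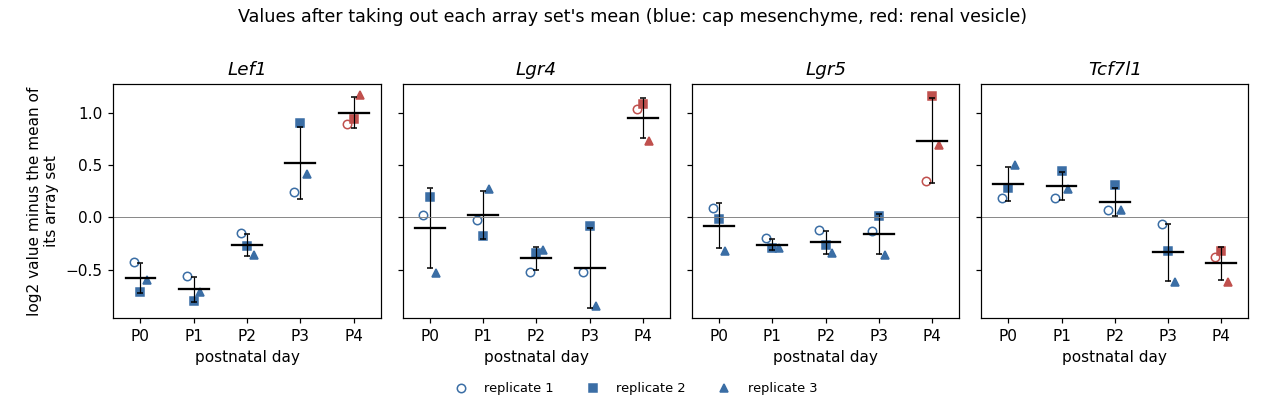
Log2 value minus the mean of the sample's array set (vertical axis, first replicates or other replicates) for Lef1, Lgr4, Lgr5 and Tcf7l1 by postnatal day, with P4 in red, cap mesenchyme in blue and bars for the day mean ± SD (n = 3). With the gap of 1.08 between sets taken out, all Tcf7l1 values of P3 and P4 lie below those of P0 to P2, while Lef1 values of P3 lie between those of P2 and P4 or within P4.

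Tcf7l2, which can activate or repress depending on its splice form, was the steadiest of the 3 factors on the cap mesenchyme days. Its day means lay between 9.80 and 10.06 from P0 to P3, and its 3 values at P4 were 9.46, 9.66 and 9.78. The cap mesenchyme values had a lowest of 9.41, a median of 9.99 and a highest of 10.23. The groups overlapped over both array sets, while both P4 values of replicates 2 and 3 lay below all 8 cap mesenchyme values of those replicates, of which the lowest was 9.96.

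The difference of Tcf7l2 at P4 from cap mesenchyme was -0.33 (SE 0.14, limma adjusted p = 0.258) without a block. It passed in the array set block fit (adjusted p = 0.0206) and with the random array set block (0.0388), but not within replicates 2 and 3 (-0.36, adjusted p = 0.0618). P4 was -0.43 from P3. This passed with the array set block (adjusted p = 0.0457, where 1.19% of all genes were lower) and missed the threshold with the replicate block (0.0535) and the random array set block (0.0830). Over P0 to P3 its slope was 0.03 per day (95% interval -0.09 to 0.15).

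**Figure D3:**
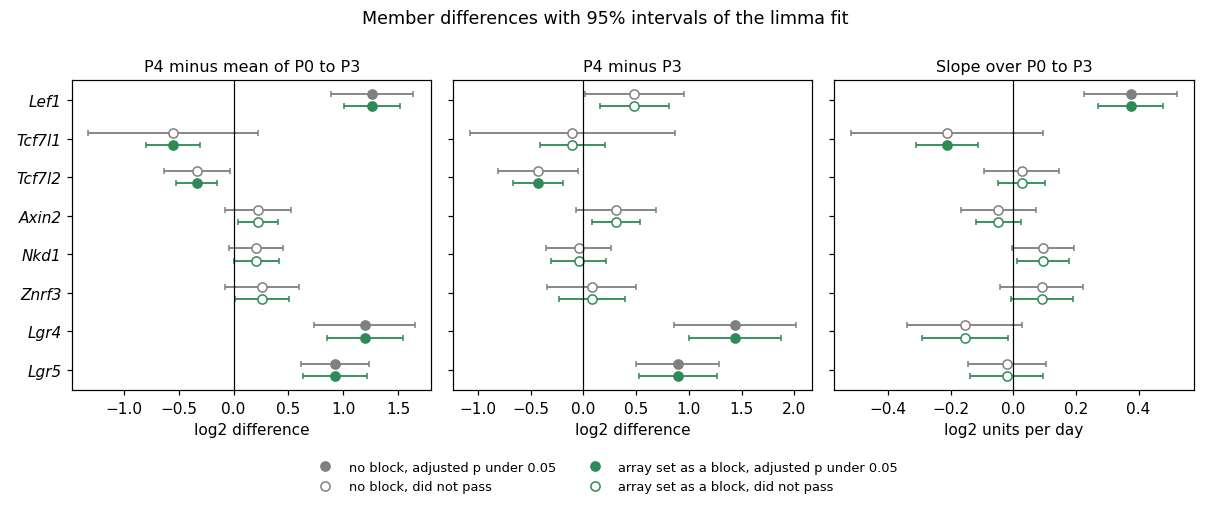
Log2 difference of P4 from the mean of P0 to P3 and from P3, and slope over P0 to P3 in log2 units per day (horizontal axes), for the 8 members tested, with 95% intervals of the limma fit without a block (grey) and in the array set block fit (green). Filled points have an adjusted p under 0.05. The estimates are the same in both fits, and Tcf7l1 (-0.55 at P4) and Tcf7l2 (-0.33) are called only with the block.

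Of the feedback inhibitors, 3 were tested and 0 passed in any limma comparison, with or without the array set block. Without a block 1 of them, Nkd1 for P3 against P2, had an unadjusted p under 0.05. With the array set block all 3 did, Axin2 for P4 against cap mesenchyme and against P3, Znrf3 for P4 against cap mesenchyme, and Nkd1 for P4 against cap mesenchyme, the slope, P3 against P0 and P3 against P2. Axin2, a scaffold of the destruction complex and a widely used readout of canonical Wnt signalling, had day means of 7.85, 7.90, 7.78 and 7.73 from P0 to P3 and 8.04 at P4. Its P4 values were 7.81, 8.04 and 8.25, and its cap mesenchyme values had a lowest of 7.41, a median of 7.87 and a highest of 8.03. The groups overlapped, with P4 replicates 2 and 3 above all cap mesenchyme values.

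For Axin2 the difference of P4 from cap mesenchyme was 0.22 (SE 0.14, limma adjusted p = 0.579, 95% interval -0.08 to 0.52), and 0.23 and 0.22 in the first and the other array set. In the array set block fit the interval was 0.04 to 0.40 (adjusted p = 0.117). Its slope over P0 to P3 was -0.05 per day (95% interval -0.17 to 0.07). The interval of the P4 difference for Axin2 lies wholly below that of Lef1 (0.89 to 1.63). The difference between the 2 genes was not tested.

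Nkd1, which binds Dishevelled and dampens the signal, had values of 8.09, 8.49 and 8.32 at P4. Its cap mesenchyme values had a lowest of 7.84, a median of 8.07 and a highest of 8.64, which enclosed all 3 P4 values. The P4 difference was 0.21 (SE 0.11, limma adjusted p = 0.477, 95% interval -0.04 to 0.45), and P4 was -0.04 from P3. The highest day mean was that of P3 (8.35 ± 0.25, SD, n = 3), and its slope over P0 to P3 was 0.09 per day (95% interval -0.0045 to 0.19, adjusted p = 0.44).

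Znrf3, a membrane ubiquitin ligase that removes Frizzled receptors, had values of 8.09, 8.69 and 8.15 at P4. Its cap mesenchyme values had a lowest of 7.70, a median of 8.04 and a highest of 8.40. Only P4 replicate 2 lay above all of them. The P4 difference was 0.26 (SE 0.16, limma adjusted p = 0.549, 95% interval -0.08 to 0.59), with an interval of 0.01 to 0.51 in the array set block fit (adjusted p = 0.195).

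Rnf43, the ligase related to Znrf3, was dim, with 1 of 15 values above the median of all values. Its values were 6.84, 6.71 and 6.95 at P4, and its cap mesenchyme values had a lowest of 6.13, a median of 6.46 and a highest of 6.65. All 3 P4 values lay above all cap mesenchyme values. The P4 difference was 0.39 (SE 0.11) in the fit of all genes without a filter and did not pass (limma unadjusted p = 0.0029, adjusted p = 0.0722).

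Both R-spondin receptors were higher at P4, of which Lgr5 met the filter largely through P4. Lgr4 had values of 9.35, 9.82 and 9.47 at P4, and its cap mesenchyme values had a lowest of 7.79, a median of 8.36 and a highest of 9.01. The groups did not overlap. For Lgr4, Lgr5 and Rnf43 alike, the share of all genes without such overlap was not counted. The P4 difference of Lgr4 was 1.19 (SE 0.21, 2.29-fold, limma adjusted p = 0.00288), with 1.30 among the first replicates and 1.14 among the others.

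Lgr4 showed no called change over the cap mesenchyme days. Its day means were 8.49, 8.62, 8.20 and 8.11 at P0, P1, P2 and P3, with a slope of -0.16 per day (95% interval -0.34 to 0.03, adjusted p = 0.524). P4 exceeded P3 by 1.44 (SE 0.27, 2.71-fold, limma adjusted p = 0.0125). In this comparison Lgr4 was the 1 member higher of the 7 that passed the filter without P4, against 1.04% of all genes.

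Lgr5, known as a mark of stem cells and as a target of Wnt signalling in the intestine, had values of 7.22, 7.97 and 7.49 at P4. Its cap mesenchyme values had a lowest of 6.44, a median of 6.61 and a highest of 6.96. The groups did not overlap, and the cap mesenchyme values stood close to the median of all values or below it. The P4 difference was 0.92 (SE 0.14, 1.89-fold, limma adjusted p = 0.000925), with 0.44 among the first replicates and 1.16 among the others.

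Lgr5 at P4 exceeded P3 by 0.90 (SE 0.18, 1.86-fold, limma adjusted p = 0.0223), and its slope over P0 to P3 was -0.02 per day (95% interval -0.15 to 0.10). The P4 calls of Lgr4 and Lgr5 against cap mesenchyme held in all 15 fits that left out 1 sample. Against P3 both calls ended without P3 replicate 1, P3 replicate 3, P4 replicate 2 or P4 replicate 3, each left out alone, at adjusted p up to 0.0797 for Lgr4 and 0.109 for Lgr5. Within replicates 2 and 3 the difference of Lgr4 from P3 was 1.37 (adjusted p = 0.0528).

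Some markers of other nephron and kidney cells moved with P4 as well. The mean log2 value over 11 distal tubule and loop of Henle markers was 7.41 to 7.66 in P4 samples and 6.43 to 6.80 in cap mesenchyme samples, and 5 of the 8 tested were higher. Over 11 ureteric bud markers it was 7.29 to 7.44 in P4 samples and 6.82 to 7.17 in cap mesenchyme samples, and 2 of 8 were higher. These were Gata3 (1.88, 3.67-fold, limma adjusted p = 3.88e-06), a transcription factor of the bud and of distal nephron segments, and the keratin gene Krt8 (0.67, adjusted p = 0.0110). The P4 and cap mesenchyme means were 8.04 and 6.16 for Gata3, and 8.40 and 5.99 for the distal marker Tfap2b. For the distal marker Tmem52b they were 7.93 and 6.40. With cap mesenchyme means under the median of all values, these genes may have passed the filter only through P4. The counts of higher markers include them and are not set against the share of all genes. The bud tip receptor gene Ret did not pass the filter and averaged 6.47 at P4 and 6.42 in cap mesenchyme. Of 10 endothelial markers 2 were tested and 1 was higher, Cldn5 (1.56, limma adjusted p = 0.00229), and the mean over the list was 6.62 to 6.68 in P4 samples and 6.24 to 6.50 in cap mesenchyme samples. The other, Egfl7, differed by 0.07 (limma adjusted p = 0.905). Below the filter, P4 and cap mesenchyme averaged 5.97 and 5.97 for Pecam1, 5.81 and 5.85 for Kdr, and 5.77 and 5.37 for Tek.

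Over 12 stromal markers the mean was 7.61 to 7.75 in P4 samples and 7.24 to 8.09 in cap mesenchyme samples. Of the 11 tested, 2 were lower at P4, Foxd1 (-0.74) and Meis1 (-0.78), and 4 fell over P0 to P3, Foxd1 (-0.48 per day), Postn (-0.50), Pdgfra (-0.32) and Dcn (-0.35). Over the same days 6 of 11 cap mesenchyme markers fell, among them Six2 (-0.40 per day) and Cited1 (-0.69), and 7 of 12 renal vesicle markers rose, among them Bmp2 (0.96 per day) and Cdh6 (0.53). These shifts moved with the rise of Lef1 and with the lower values of Tcf7l1 and Rspo3. The part of these cells in the differences of Lef1, Tcf7l1, Lgr4, Lgr5 and Rspo3 was not tested.

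Lymphocytes, which use Lef1 and Tcf7, were gauged by 10 markers, with a mean of 5.90 to 6.08 in P4 samples and 5.72 to 6.20 in cap mesenchyme samples. The ranges overlapped. In bulk samples, fewer cells of a type and less RNA per cell cannot be told apart.

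The rest of the pathway was described through 5 lists of other Wnt genes. For P4 against cap mesenchyme, among 15 Frizzled and other Wnt receptors, 1 was higher, Fzd6 (0.48, limma adjusted p = 0.021), and 1 was lower, Ryk (-0.59, adjusted p = 0.00386), with a list median of 0.20 against 0.00 for all genes. The call of Fzd6 ended without any 1 of the P4 replicates, at adjusted p up to 0.111. Among 17 tested genes of Dishevelled and the destruction complex, which include beta-catenin itself (Ctnnb1, 0.12), 0 passed in limma and 0 had an unadjusted p under 0.05, with a median of -0.02.

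Among 19 cofactors and corepressors of beta-catenin, 1 was higher, Sox9 (1.79, SE 0.27, 3.45-fold, limma adjusted p = 0.000579), a factor of early nephron and bud cells that can bind beta-catenin. Among the R-spondins and their co-receptors, 5 of 7 were tested, 2 were lower and 0 were higher. Rspo3, an R-spondin ligand, averaged 6.71 at P4 and between 7.48 and 8.80 on the cap mesenchyme days, and its 3 P4 values were under each of its 12 cap mesenchyme values. Its P4 difference was -1.40 (SE 0.12, 2.64-fold lower, adjusted p = 3.86e-06), and its slope over P0 to P3 was -0.51 per day (adjusted p = 4.1e-05). The ligand gene Rspo3 was thus lower at P4, where the receptor genes Lgr4 and Lgr5 were higher. Its day means were 8.80, 8.68, 7.51 and 7.48 from P0 to P3. Rspo3 was therefore already lower at P2, while Lgr4 and Lgr5 had no called change before P4. The other lower gene was the glypican Gpc3 (-0.41, adjusted p = 0.0184), whose call ended without P4 replicate 3 (adjusted p = 0.161).

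Of 31 other genes known as beta-catenin targets, 29 were on the array and 21 were tested. At P4 6 were higher and 1 was lower, with a list median of 0.25. The higher ones were Emx2 (2.34, 5.06-fold) and Lhx1 (2.16, 4.47-fold), transcription factors of the early nephron, Jag1 (2.30, 4.93-fold), a Notch ligand, Dkk1 (1.69, 3.23-fold), a secreted Wnt inhibitor, Ccnd1 (1.23, 2.35-fold), a cyclin, and Wnt4 (0.56, 1.48-fold). Fgf20, a progenitor growth factor, was lower (-0.84, limma adjusted p = 0.00512). The calls of Ccnd1 (adjusted p = 0.0438) and Wnt4 (0.0495) did not hold in all fits that left out 1 sample. Ccnd1 lost its call without P0 replicate 3, P2 replicate 3, P3 replicate 1 or 2, or P4 replicate 2 or 3, at adjusted p up to 0.239. Wnt4 kept its call without P0 replicate 1, P2 replicate 2, P3 replicate 3 or P4 replicate 1 and lost it without any 1 of the other 11 samples, at adjusted p up to 0.314. Emx2, Lhx1, Jag1, Wnt4 and Ccnd1 also stand among the renal vesicle markers, so they are no separate evidence. Against P3 alone, 1 of the 21 tested targets was higher at P4 and 0 were lower, where 1.04% of all genes were higher.

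**Figure D4:**
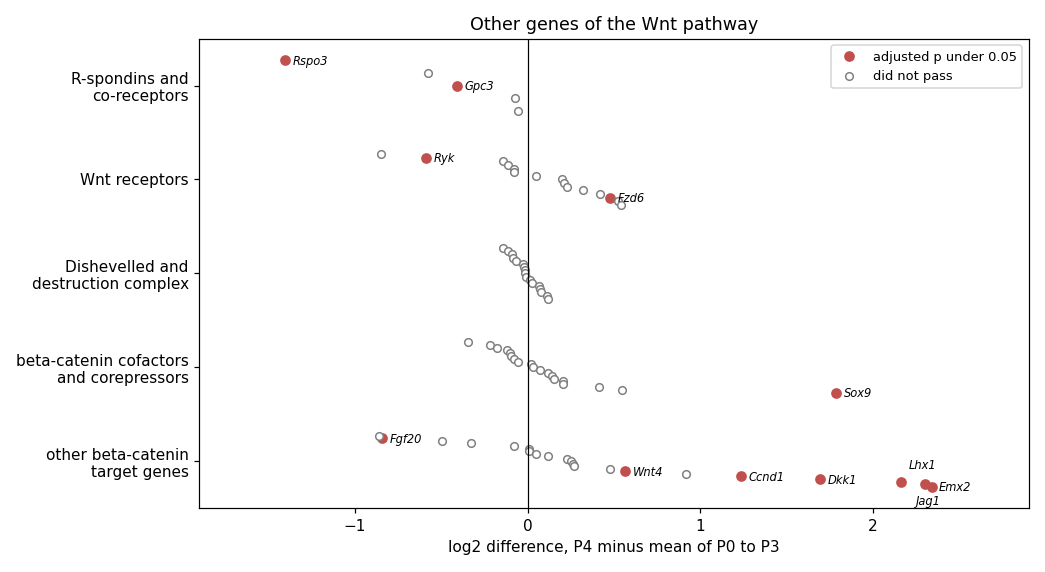
Log2 difference of P4 from the mean of P0 to P3 (horizontal axis) for the tested genes of 5 lists of other Wnt pathway genes, 1 point a gene, filled and named where the limma adjusted p was under 0.05. Emx2 (2.34) and Jag1 (2.30) stand highest, Rspo3 (-1.40) lowest, and no gene of Dishevelled and the destruction complex was called.

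Over the cap mesenchyme days, 6 of the 21 other targets rose, Lhx1, Jag1, Ccnd1, Emx2, Wnt4 and Sp5, and with the replicate number as a block 10 rose and 2 fell. The call of Emx2 (0.53 per day) ended without P0 replicate 1 or P3 replicate 2 or 3, at adjusted p up to 0.0578, and that of Sp5 (0.23 per day) without any 1 of the P0 replicates or P3 replicate 1 or 2, at adjusted p up to 0.109. Of the receptors, Fzd7 rose by 0.21 per day (limma adjusted p = 0.0119, and 0.0558 without P0 replicate 3). Of the cofactors, the corepressor gene Tle2 fell by 0.16 per day (adjusted p = 0.0338), a call that ended without any 1 of the P0 replicates, P1 replicate 2, P2 replicate 3 or P3 replicate 1 or 3, at adjusted p up to 0.117. With the replicate number as a block, 1 receptor rose and 1 fell, 1 cofactor rose and 1 fell, and 2 R-spondin genes fell. Of the Dishevelled and destruction complex genes 0 passed in limma, and 1 had an unadjusted p under 0.05. The array set block at P4 gave 5 higher and 2 lower receptors, 3 higher and 1 lower cofactors, 3 lower R-spondin genes, and 8 higher and 2 lower other targets. Both blocks also raised the calls among all genes tested. For P4 against cap mesenchyme these went from 681 without a block to 1363 with the array set block. For the slope they went from 372 without a block to 1009 with the replicate block. Whether the lists gained more calls than all genes did was not tested.

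The genes whose pattern was most like that of 4 members were listed by Pearson correlation of log2 values over the 15 arrays, after the mean of each array set was taken out. The points share days and pools, and the values are a description. For Lef1 these were Spata13 (0.98), Greb1 (0.98), Frem2 (0.97) and the secreted Wnt modulator Sfrp2 (0.97). For Tcf7l1 they were Ramp2 (0.96), the progenitor gene Cited1 (0.96), Zhx2 (0.96) and Dtnb (0.95). For Lgr5 they were Npnt (0.96), Stard10 (0.96), Dkk1 (0.95) and Ntm (0.93). For Axin2 the highest values were lower, with Pgpep1 (0.87), Flywch2 (0.86), Gli2 (0.86) and Chst15 (0.85).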

How the data were processed

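The authors summarised the arrays with Affymetrix Expression Console, as the submitters' processing notes name it, into 1 table of 35557 probe sets by 15 samples. For its version, the summarization and the background correction the sources used here give nothing, and whether changes of dim genes are understated was not tested. The deposited values run between 2.38 and 13.76, a log2 scale by their range, and were used with no further normalization. RNA was amplified in 1 round before labelling. The number of arrays limits the precision.

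Names came from the annotation table of the platform, in which 21789 probe sets had 1 symbol, 1621 had more than 1 and 12147 did not appear. The 21698 matched by gene identifier kept their symbols. Of 19938 genes, 999 had more than 1 probe set, and the brightest on average stood for them. Genes above the median of all values (6.863) in at least 3 arrays were tested.

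A mean for each day was fitted to all 15 samples with lmFit and eBayes of limma 3.58.1 (R 4.3.3), with Benjamini-Hochberg adjustment over 11885 genes and a threshold of 0.05. Tests were two-sided, and the fit was tested on simulated data. The contrasts were any difference, P4 against the mean of P0 to P3, P4 against P3, the slope over P0 to P3, P3 against P0 and adjacent days. Alternatives were other normalizations and filters, the mean of all probe sets, blocks, each sample left out, a trended robust eBayes and only the days compared. The text names all members, up to 4 genes of each list with the smallest p at P4 and those called over P0 to P3, and 4 genes most like each of 4 members. The list genes called over P0 to P3 and the further called targets and markers were named after their values were seen. The members and lists were chosen with earlier results of these data known. No scanner files were used.

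Same-numbered samples were checked for pairing by the correlation of their deviations from the day means. It was over 0.1 for all 18 of 18 P0 to P3 pairs (lowest 0.138) and 3 of 3 pairs of P3 and P4 (lowest 0.329). Over all 5 days it was 29 of 30 (lowest 0.0782). These deviations still hold the gap between array sets, which every day shares, and differently numbered samples were not compared. The check therefore cannot show whether same-numbered samples were paired. The main fits did not pair same-numbered samples, and the replicate number entered as a block only in an alternative fit. The first replicate of a day has no number in its title and was taken as 1. No pair of samples held identical values.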

Additional observations from a re-analysis of the deposited data

How the results depend on the processing

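The P4 differences of Lef1, Lgr4 and Lgr5 from cap mesenchyme and the Lef1 slope passed in every alternative run, except that Lgr5 was not tested under the stricter filter (mean above the median of all values). Other calls depended on the model. The count of 3 members called at P4 against cap mesenchyme was 5 with the replicate block and 5 with the array set block. It includes Lgr5, which met the filter largely through P4, as do the counts below for P4 against P3 and for any difference. For P4 against cap mesenchyme the random array set block added Tcf7l2, and the fit within replicates 2 and 3 added Tcf7l1. The slope called 1 member, and 2 with the replicate block, the array set block or replicates 2 and 3 alone. P3 against P0 called 1, and 2 under the same 3 settings, but 0 when only the days compared were fitted. P3 against P2 called 0, and 1 with the replicate block, the array set block, the random array set block or replicates 2 and 3 alone. P4 against P3 called 2, and Tcf7l2 as well with the array set block. It called 1 under the stricter filter, 1 within replicates 2 and 3 and 0 with only the days compared. With 1 sample left out, the members called numbered 1 to 3 for any difference, 0 to 2 for P4 against P3, 0 to 1 for P3 against P0 and 0 to 1 for P3 against P2 (1 without P3 replicate 1).

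Over all genes, any difference called 638, against 1483 with the replicate block, 1386 with the array set block and 1218 with the random block. P4 against cap mesenchyme called 681, against 1435, 1363 and 1193 in the same order. P4 against P3 called 177, against 422, 398 and 334, and 41 with only the days compared. The slope called 372, against 1009, 918 and 809. P3 against P0 called 259, against 770, 716 and 622, and 65 with only the days compared. With 1 sample left out the counts ran from 417 to 770 for P4 against cap mesenchyme, 99 to 187 for P4 against P3, 183 to 381 for the slope and 121 to 261 for P3 against P0. The lowest came without P4 replicate 2 for P4 against cap mesenchyme, without P4 replicate 3 for P4 against P3 and without P0 replicate 3 for the slope and P3 against P0.

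Signs turned only for members in comparisons in which they were not called. Within replicates 2 and 3 these were Tcf7l1 (0.00031) and Nkd1 (0.000565) for P4 against P3, and Tcf7l2 for the slope (-0.0246) and P3 against P0 (-0.0904). With 1 sample left out, P4 against P3 ran from -0.35 to 0.23 for Tcf7l1, -0.11 to 0.19 for Znrf3 and -0.14 to 0.10 for Nkd1, the slope from -0.0253 to 0.0555 for Tcf7l2 and -0.0613 to 0.0121 for Lgr5, and P3 against P0 from -0.14 to 0.13 for Tcf7l2 and -0.211 to 0.0329 for Lgr5. The replicate block shares only a number over all 5 days. The causes of these changes were not tested. Rnf43 and the cap mesenchyme values of Lgr5 lie near or below the median of all values, and whether changes there were understated was not tested.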
